A study of Mus musculus with 6 samples.

Results

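Mesothelial transcripts were examined in ectopic lesions through 6 genes: Msln, Upk3b, Lrrn4, Wt1, Gpm6a and Bnc1. They were chosen by name from the raw count table, in which all 6 were found among 56884 gene identifiers, and all 6 were among the 18177 genes that passed the filter on low counts. The series compares ectopic endometriotic lesions grown from uterine tissue of 8-week-old Dnmt3a f/f:PR Cre/+ donors (KO, 3 lesions) with lesions from 8-week-old Dnmt3a f/f donors (WT, 3 lesions). In KO donors, Cre recombinase is made where the progesterone receptor gene is active and deletes the floxed part of Dnmt3a there. Floxed alleles were common to both groups. All recipients were 8-week-old wild-type C57BL/6J females carrying a pellet that releases estradiol, and the donors had also been injected with estradiol. The labels give 4 weeks as the time of the lesions, and the methods give day 21 after surgery. The labels describe uterine fragments given into the peritoneal cavity as a suspension, whereas the methods describe a fragment sutured to the mesenteric membrane. Each lesion was sequenced whole as 1 library of polyadenylated RNA, and per the methods the 3 lesions of a genotype came from 3 donors. Recipients carried no deletion of Dnmt3a, and mesothelial cells of the recipient and of the outer surface of the donor uterus cannot be told apart in these counts.

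Mesothelium is a single layer of flat cells that lines the peritoneal cavity and covers its organs, the mesentery and the outer surface of the uterus. It arises from mesoderm but carries epithelial features such as keratins and apical membrane proteins, and it secretes lubricants that let organs slide. In endometriosis, shed endometrial tissue meets and attaches to this lining. Among the members, Msln encodes mesothelin, a surface glycoprotein held by a lipid anchor that binds mucin 16. Upk3b encodes a membrane protein of the uroplakin family, Lrrn4 a membrane protein with leucine-rich repeats, and Gpm6a a membrane glycoprotein that is also abundant in neurons. Wt1 and Bnc1 encode zinc finger transcription factors. Wt1 is also made in uterine stroma, and Bnc1 in squamous epithelia and germ cells. In GENCODE M21 (GRCm38), Msln (ENSMUSG00000063011) lies at chr17:25748613-25754378 on the minus strand and Upk3b (ENSMUSG00000042985) at chr5:136038496-136046487 on the plus strand. Lrrn4 (ENSMUSG00000043110) lies at chr2:132868305-132880891 on the minus strand, and Wt1 (ENSMUSG00000016458) at chr2:105126529-105173616 on the plus strand. Gpm6a (ENSMUSG00000031517) lies at chr8:54954843-55060871 on the plus strand and Bnc1 (ENSMUSG00000025105) at chr7:81966672-81992292 on the minus strand.

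The totals were between 45370342 and 57239184 counts per library, and TMM factors were between 0.962 and 1.05. The targeted gene Dnmt3a had 43.9 to 52.7 CPM (counts scaled to a common library size of 1e6) in WT and 30.3 to 36.2 CPM in KO lesions, a log2 fold change of -0.57 (edgeR, adjusted p = 0.321), and the groups did not overlap. These counts cover the whole gene, recipient cells included, and DESeq2's Wald test gave Dnmt3a an adjusted p of 0.00685. Some libraries held transcripts of other tissues. Skeletal muscle markers summed to 24964 and 30107 CPM in WT replicates 1 and 3 and to at most 14.7 CPM in the other 4. Pancreatic and intestinal markers summed to 2057 CPM in WT replicate 3 and to at most 16.8 CPM elsewhere. Urothelial and squamous markers summed to 248 CPM in WT replicate 2, with Krt5, Upk1a, Upk3a, Trp63 and Upk2 at 99.2, 56.5, 48.9, 19.4 and 18.9 CPM. The sum was 93.3 CPM in KO replicate 2, of which Upk1a alone was 91.0 CPM, and at most 10.9 CPM elsewhere.

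Because Dnmt3a methylates cytosine in CpG dinucleotides, the promoter windows of the members are shown with each CpG in capitals. DNA methylation was not measured in these libraries. The RefSeq table on GRCm38.p6, from 250 bases before to 50 bases after each annotated start, held 5 windows for 4 members, Upk3b, Lrrn4, Gpm6a and Bnc1.
Upk3b, chr5:136038246-136038545, plus strand: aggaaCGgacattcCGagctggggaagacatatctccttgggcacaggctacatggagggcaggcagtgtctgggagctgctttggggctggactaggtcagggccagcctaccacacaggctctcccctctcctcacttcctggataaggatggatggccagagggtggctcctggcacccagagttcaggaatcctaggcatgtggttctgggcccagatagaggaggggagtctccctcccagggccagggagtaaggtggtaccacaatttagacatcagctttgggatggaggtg
Lrrn4, chr2:132880813-132881112, minus strand: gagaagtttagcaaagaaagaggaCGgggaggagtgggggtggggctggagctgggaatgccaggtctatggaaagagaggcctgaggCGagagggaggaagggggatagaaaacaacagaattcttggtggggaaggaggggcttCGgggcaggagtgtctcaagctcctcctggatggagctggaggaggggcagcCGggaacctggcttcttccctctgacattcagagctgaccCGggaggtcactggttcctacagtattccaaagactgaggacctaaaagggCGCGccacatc
Gpm6a, upstream start, chr8:54779184-54779483, plus strand: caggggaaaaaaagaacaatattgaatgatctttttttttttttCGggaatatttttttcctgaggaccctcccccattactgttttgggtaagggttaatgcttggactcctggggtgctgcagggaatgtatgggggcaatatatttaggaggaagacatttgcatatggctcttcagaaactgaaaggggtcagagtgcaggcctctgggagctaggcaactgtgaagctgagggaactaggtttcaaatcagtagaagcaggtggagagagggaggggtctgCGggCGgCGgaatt
Gpm6a, downstream start, chr8:54954478-54954777, plus strand: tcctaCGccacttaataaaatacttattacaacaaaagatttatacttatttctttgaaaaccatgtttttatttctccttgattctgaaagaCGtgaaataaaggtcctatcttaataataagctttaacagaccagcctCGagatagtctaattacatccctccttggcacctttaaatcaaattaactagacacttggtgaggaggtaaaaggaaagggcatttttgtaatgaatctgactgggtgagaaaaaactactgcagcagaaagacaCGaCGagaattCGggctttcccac
Bnc1, chr7:81992250-81992549, minus strand: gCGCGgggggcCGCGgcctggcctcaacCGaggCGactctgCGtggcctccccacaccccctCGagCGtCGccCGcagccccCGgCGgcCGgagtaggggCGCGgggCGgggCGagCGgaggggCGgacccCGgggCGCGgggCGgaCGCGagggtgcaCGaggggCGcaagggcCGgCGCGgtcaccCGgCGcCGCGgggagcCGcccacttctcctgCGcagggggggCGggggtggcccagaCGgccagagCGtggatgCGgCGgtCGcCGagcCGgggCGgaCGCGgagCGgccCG

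The windows differed widely in CpG content. Bnc1 held 50 CpG, a number reached by 0.855% of the 32851 promoter windows of the table, and its window was 83.3% G or C. Upk3b held 2 CpG, and 85.9% of windows held at least as many. Lrrn4 held 7, which is the median of all windows, and the 2 windows of Gpm6a held 4 and 6. Of motifs searched on both strands, the GC box GGGCGG occurred 6 times in Bnc1 and once in the upstream window of Gpm6a, against 35.7% of all windows with at least 1 match. The TEAD core GGAATG was found in the windows of Upk3b and Lrrn4 and in the upstream window of Gpm6a (14.7% of all windows). TATAAA occurred in the downstream window of Gpm6a (13.6% of all windows). The WT1 and EGR site GCGGGGGCG was matched in none of the 5 (2.91% of all windows). A match describes letters only. Overlapping matches of these motifs were counted for each motif separately.

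Levels are given in the order of replicates 1, 2 and 3. Msln stood at 69.4, 45.8 and 8.46 CPM across the WT lesions against 4.10, 65.6 and 38.9 CPM across the KO lesions. Within each genotype, 1 lesion was low, WT replicate 3 and KO replicate 1, and the ranges of the groups overlapped. The highest lesion exceeded the lowest 16.9-fold. Means were 41.2 ± 30.7 CPM in WT and 36.2 ± 30.9 CPM in KO (SD, n = 3 each), and the exact two-sided permutation test gave p = 0.7, where 3 lesions against 3 allow no value under 0.1. The log2 fold change, KO minus WT, was -0.19 (standard error 1.07, 95% confidence interval -2.80 to 2.43, adjusted p = 0.944 in the edgeR fit).

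Upk3b, the member with the most counts, repeated this order of lesions exactly. It stood at 105, 88.4 and 17.6 CPM across the WT lesions against 14.9, 102 and 55.7 CPM across the KO lesions. The spread was smaller than that of Msln, with a 7.05-fold range from KO replicate 1 to WT replicate 1. Upk3b averaged 70.4 ± 46.5 CPM in WT and 57.4 ± 43.5 CPM in KO, and its log2 fold change was -0.29 (standard error 0.85, interval -2.38 to 1.80, adjusted p = 0.883).

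Lrrn4 stood at 39.3, 35.7 and 7.60 CPM across the WT lesions against 3.88, 40.1 and 25.9 CPM across the KO lesions. Again KO replicate 1 and WT replicate 3 were lowest, and KO replicate 2 was marginally above WT replicate 1 at the top. The log2 fold change was -0.24 (standard error 0.92, interval -2.49 to 2.01, adjusted p = 0.914).

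Bnc1 stood at 23.9, 11.8 and 3.50 CPM across the WT lesions against 2.07, 21.1 and 15.0 CPM across the KO lesions, an 11.5-fold range. Its order differed from that of Msln in the middle, where WT replicate 2 lay below KO replicate 3. The group means, 13.0 ± 10.2 and 12.7 ± 9.71 CPM, were the closest of the members. Its log2 fold change was -0.04 (standard error 0.96, interval -2.37 to 2.30, adjusted p = 0.987).

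**Figure D1:**
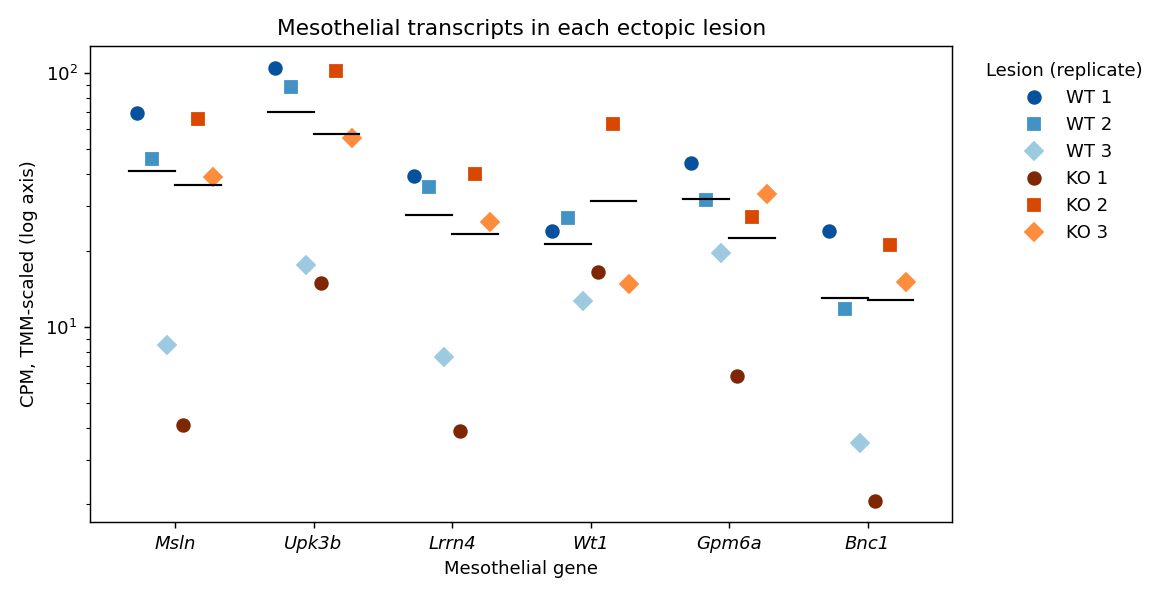
Level of each mesothelial gene in every lesion, in TMM-scaled CPM on a log axis. Points are single lesions, blue for WT and brown to orange for KO, and black lines are the group means (n = 3). WT replicate 3 and KO replicate 1 are the lowest points for 5 of the 6 genes, and WT and KO overlap for every gene.

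Gpm6a stood at 44.3, 31.6 and 19.5 CPM across the WT lesions against 6.42, 27.1 and 33.5 CPM across the KO lesions. The 2 lowest lesions were the same, but WT replicate 3 was closer to the others than it was for Msln, and KO replicate 3 stood above KO replicate 2. Its log2 fold change was -0.51 (standard error 0.62, interval -2.03 to 1.01, adjusted p = 0.699). Of neuronal markers, Snap25 and Elavl4 reached at most 0.270 and 0.0427 CPM in any lesion, while Tubb3 ran from 0.358 to 2.35 CPM and Syt1 from 0.854 to 1.97 CPM in WT and from 2.21 to 3.58 CPM in KO lesions, without overlap. All 8 neuron and Schwann cell markers summed to 39.0 to 83.5 CPM, of which Ncam1 was 31.3 to 64.8 CPM, and 0 of the 6 tested passed after adjustment (Syt1, with a positive fold change, and Sox10, with a negative one, had unadjusted p-values under 0.05, as did 14.7% of all genes tested).

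Wt1 departed from the other members. It stood at 23.9, 26.8 and 12.7 CPM across the WT lesions against 16.5, 62.8 and 14.7 CPM across the KO lesions. KO replicate 2 stood highest at 62.8 CPM, while the other 5 lay between 12.7 and 26.8 CPM, and KO replicate 1 was not among the 2 lowest. Wt1 was the member with a positive log2 fold change, 0.57 (standard error 0.64, interval -0.99 to 2.13, adjusted p = 0.673). Without KO replicate 2 the value was -0.43, so its sign rested on that lesion. The antisense neighbour Wt1os had the same highest and lowest lesion, 6.0 CPM in KO replicate 2 and 1.03 CPM in WT replicate 3, and its counts were 0.0691 to 0.111 of those of Wt1. The libraries were made with a stranded kit, but the strand setting of the counting is not given in the sources used here. Reads of Wt1 and Wt1os may therefore be mixed where the counted models overlap, although the 2 gene spans did not overlap in GENCODE M21.

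Of the 6 members, 0 passed an adjusted p-value of 0.05, where 1 of 18177 genes did (0.0055%). None passed an unadjusted p-value of 0.05 with a log2 fold change beyond 1 in either direction, which 8.96% of all genes did. In 0 of the 6 were the 3 WT and 3 KO values separate, against 19.4% of all genes tested. The median log2 fold change was -0.21 over the members and 0.01 over all genes. The 6 intervals ran from -0.99 or lower to 1.01 or higher, so differences of about 2-fold in either direction were not excluded for any member. For Msln, Upk3b, Lrrn4 and Bnc1 they ran from -2.37 or lower to 1.80 or higher, so larger differences were not excluded for these genes.

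**Figure D2:**
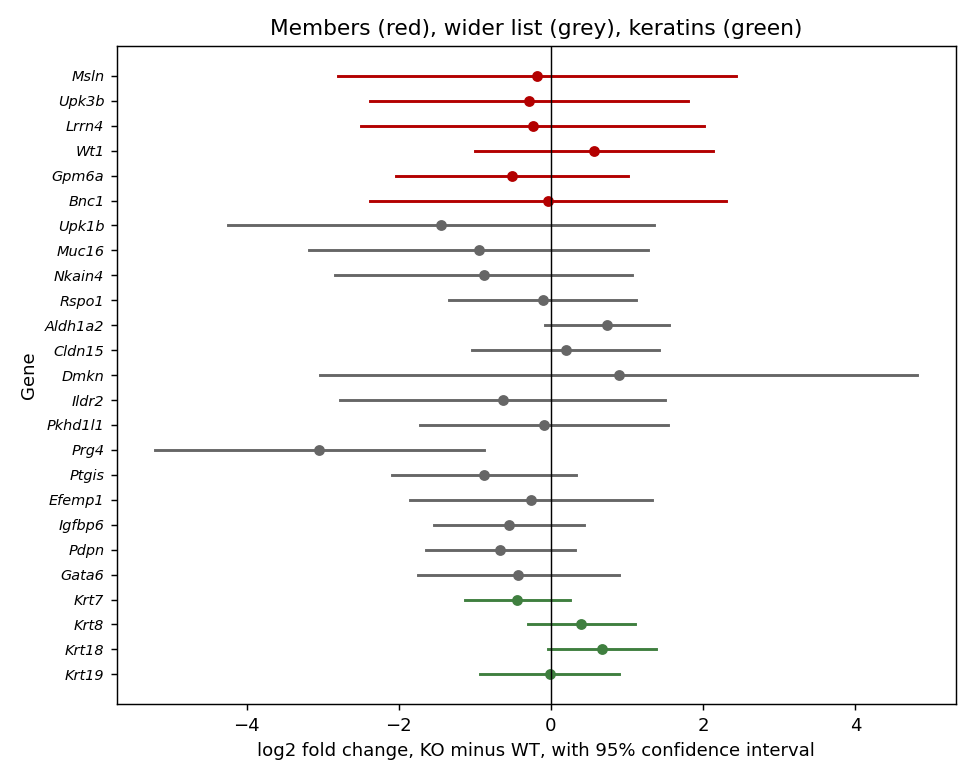
Log2 fold change (KO minus WT, dots) with 95% confidence interval (lines) from edgeR's quasi-likelihood fit for the 6 members, 15 genes of a wider mesothelial list and 4 simple epithelial keratins. Every member's interval spans 0, and Prg4, at -3.04, is the gene whose interval lies wholly below 0.

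The spread within genotypes set the members apart from most of the table. The pooled within-group standard deviation of log2 CPM was 1.88 for Msln, 1.61 for Bnc1, 1.57 for Lrrn4, 1.42 for Upk3b, 1.01 for Gpm6a and 0.92 for Wt1, and the median of all genes tested was 0.36. A larger value than that of Msln was found for 2.59% of genes, and a larger value than that of Wt1 for 14.5%. Single lesions moved the fold changes accordingly. Msln, Upk3b, Lrrn4 and Bnc1 turned positive without KO replicate 1 (0.33, 0.15, 0.26 and 0.46) and also without WT replicate 1 (0.42, 0.12, 0.11 and 0.74). Without KO replicate 2 they were -0.94, -0.99, -0.88 and -0.61.

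Added together, the members gave 306, 240 and 69.3 CPM across the WT lesions against 47.9, 318 and 184 CPM across the KO lesions. This sum differed 6.65-fold from KO replicate 1 to KO replicate 2, which share a genotype, while the group means were 205 ± 122 and 183 ± 135 CPM (SD, n = 3 each). Without TMM scaling the sum was 47.7 CPM in KO replicate 1 (Wilson 95% interval 45.9 to 49.5) and 334 CPM in KO replicate 2 (329 to 339). These intervals cover counting error only and are narrow beside the spread between lesions. Fewer mesothelial cells and less RNA per cell cannot be told apart in whole lesions.

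Ratios between members within a library do not depend on the scaling. Lrrn4 was counted 0.566 to 0.944 times as often as Msln, a 1.67-fold range over the 6 lesions, and Bnc1 0.257 to 0.504 times as often, a 1.97-fold range. For Upk3b the ratio to Msln was 1.43 to 3.63, with 5 lesions between 1.43 and 2.08 and KO replicate 1 at 3.63. These 4 genes thus varied far less relative to each other than in level. Gpm6a ranged 5.58-fold relative to Msln, from 0.413 in KO replicate 2 to 2.30 in WT replicate 3. Wt1 ranged 11.6-fold, from 0.345 in WT replicate 1 to 4.02 in KO replicate 1, and the ratio exceeded 1 in the 2 lesions where Msln was lowest.

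**Figure D3:**
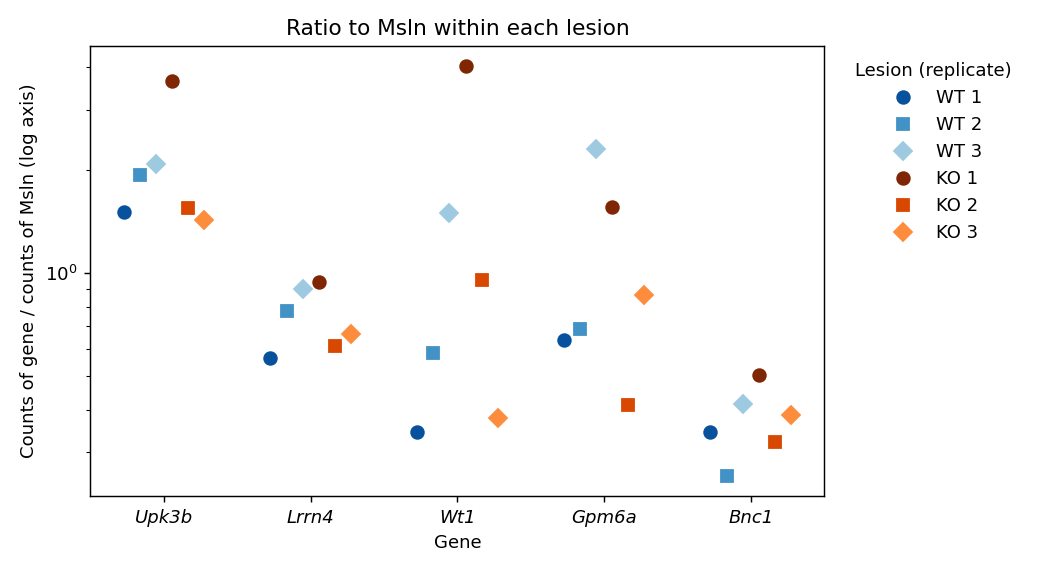
Counts of each other member divided by the counts of Msln in the same lesion, on a log axis. Points are single lesions in the colours of the plot of levels. Every ratio is highest in WT replicate 3 and KO replicate 1, the lesions where Msln was lowest. Lrrn4 and Bnc1 span less than 2-fold, whereas Gpm6a spans 5.58-fold and Wt1 11.6-fold.

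Per kilobase of exon, the mean level over the 6 lesions was 18.1 CPM per kb for Upk3b, 12.6 for Msln, 8.42 for Gpm6a, 6.84 for Lrrn4, 4.23 for Wt1 and 2.77 for Bnc1. Upk3b lay above Msln in all 6 lesions. The other neighbours in this order changed places in some lesions. Msln exceeded Gpm6a in 4 lesions, Gpm6a exceeded Lrrn4 in 5, Lrrn4 exceeded Wt1 in 4 and Wt1 exceeded Bnc1 in 4. In WT replicate 3, Gpm6a was highest per kb (6.06) and Upk3b next (4.99).

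Of 12 relatives and neighbours of the members, 10 were tested and 0 passed after adjustment. Mslnl, the mesothelin-like gene, had at most 0.09 CPM. Upk3bl, which resembles Upk3b, stood at 40.0, 5.18 and 8.61 CPM across the WT lesions against 78.1, 46.4 and 23.9 CPM across the KO lesions, and was highest in KO replicate 1, where Upk3b was lowest. Its log2 fold change was 1.47 (adjusted p = 0.431). Gpm6b, the broadly made relative of Gpm6a, stayed between 64.7 and 107 CPM. Bnc2, the relative of Bnc1 found in fibroblasts and stroma, stood at 23.9, 19.6 and 17.2 CPM across the WT lesions against 24.3, 34.2 and 29.3 CPM across the KO lesions. These groups did not overlap, and the log2 fold change of Bnc2 was 0.53 (edgeR, unadjusted p = 0.0352 and adjusted p = 0.332), which did not pass. The urothelial genes Upk3a and Krt5 were counted in WT replicate 2 at 48.9 and 99.2 CPM, and Upk3a was at 0 in the other 5 lesions. Upk1a had 56.5 CPM in WT replicate 2 and 91.0 CPM in KO replicate 2 and at most 3.51 CPM elsewhere. Upk3b was not raised in WT replicate 2 above WT replicate 1. The part of urothelium in the signal of Upk3b was not tested.

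A wider list held 16 further genes described in mesothelial cells, several of them also made elsewhere. Calb2, the calretinin gene used to stain human mesothelium, had at most 2 counts and was not tested. Of the other 15, 0 passed after adjustment in either direction (edgeR, adjusted p between 0.321 and 0.959), 12 had a negative and 3 a positive log2 fold change, and the median was -0.55, beside 0.01 over all genes. Prg4, which encodes the lubricant lubricin, was the 1 gene of these 15 with an unadjusted p-value under 0.05, against 14.7% of all genes tested. It stood at 57.0, 108 and 22.6 CPM across the WT lesions against 2.81, 4.13 and 15.8 CPM across the KO lesions, without overlap, and its log2 fold change was -3.04 (standard error 0.88, unadjusted p = 0.0136, adjusted p = 0.321). Across all genes tested, the groups did not overlap for 19.4%. DESeq2's Wald test gave Prg4 an adjusted p of 0.00775, and that test called 391 genes higher and 709 lower after adjustment. The order of lesions for Prg4 was not that of the members, since KO replicate 2, with the highest member sum, stood at 4.13 CPM.

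Several genes of the wider list followed the members over the lesions. Rspo1, a secreted Wnt agonist, stood at 23.9, 18.8 and 8.95 CPM across the WT lesions against 7.75, 22.7 and 17.4 CPM across the KO lesions. Cldn15, a tight junction claudin, stood at 29.1, 22.1 and 11.0 CPM across the WT lesions against 11.4, 34.0 and 25.8 CPM across the KO lesions. Muc16, the mucin that binds mesothelin, stood at 18.6, 29.7 and 6.58 CPM across the WT lesions against 1.61, 18.3 and 8.40 CPM across the KO lesions, and its counts were 0.216 to 0.778 of those of Msln. Upk1b was 86.5 CPM in WT replicate 2, the library with urothelial markers, and 2.98 to 31.1 CPM in the others, and its counts were 0.978 of those of Upk3b there and 0.200 to 0.296 elsewhere.

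Other genes of the wider list followed different orders. Ildr2, a membrane protein of the immunoglobulin family, ranged from 6.25 CPM in KO replicate 1 to 72.1 CPM in WT replicate 2. Dmkn, which is also made in squamous epithelium, reached 26.3 CPM in KO replicate 2 and 11.0 CPM in WT replicate 2 and at most 3.18 CPM elsewhere. The squamous keratin Krt5 stood at 99.2 CPM in WT replicate 2 but at 0.0397 CPM in KO replicate 2. Efemp1 and Igfbp6, both secreted and also made by fibroblasts, were lowest in KO replicate 1 at 20.8 and 92.9 CPM, and their highest values were 114 CPM in KO replicate 3 and 283 CPM in WT replicate 1. Pdpn, which lymphatic endothelium also makes, ran from 23.8 CPM in KO replicate 1 to 96.0 CPM in WT replicate 2.

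A count of ranks, chosen after the values were seen, described how widely this pattern was shared. The 2 lowest of the 6 lesions were WT replicate 3 and KO replicate 1 for 5 of the 6 members, for 7 of 15 tested genes of the wider list (Upk1b, Muc16, Nkain4, Rspo1, Cldn15, Ptgis and Gata6) and for 857 of the 18177 genes tested (4.71%). The count was 0 of 4 for the simple epithelial keratins. Aldh1a2, which makes retinoic acid in mesothelium and in uterine stroma, stood at 78.5, 157 and 138 CPM across the WT lesions against 257, 143 and 222 CPM across the KO lesions, with its highest value in KO replicate 1. Krt7, Krt8, Krt18 and Krt19, which mesothelium shares with endometrial epithelium, summed to 2048 CPM in KO replicate 1 and 2002 CPM in WT replicate 3, the 2 highest sums, and 1191 to 1789 CPM in the others. None of the 4 keratins passed (adjusted p from 0.348 to 0.984).

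**Figure D4:**
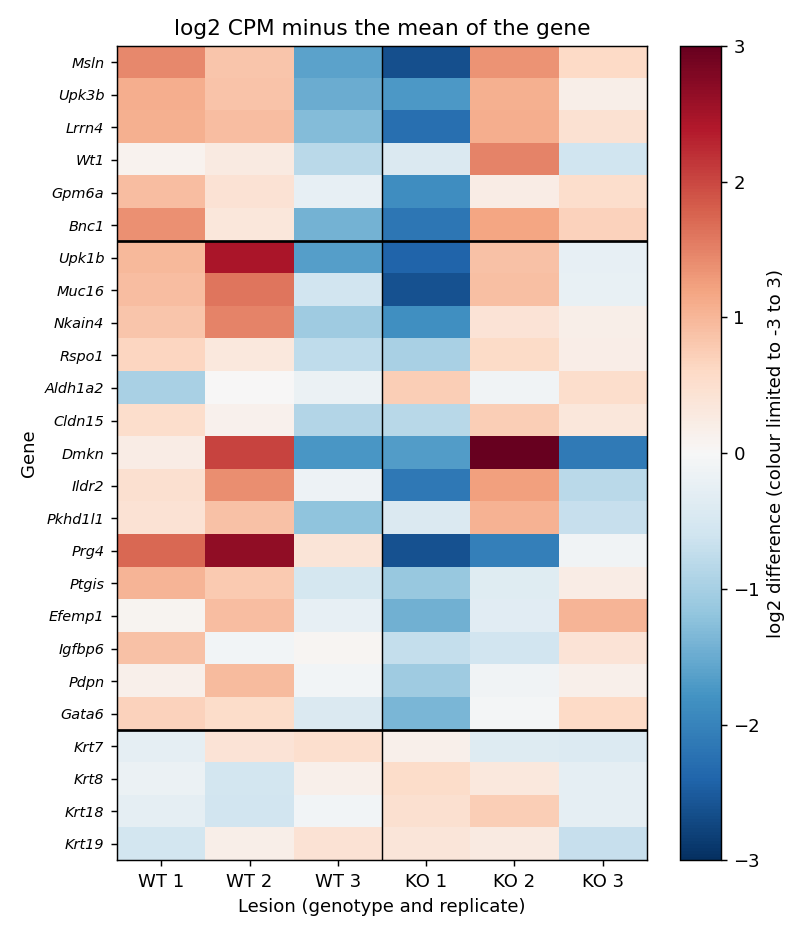
Difference of log2 CPM from the mean of each gene over the 6 lesions, for the members (top), the wider mesothelial list (middle) and the keratins (bottom), with WT left and KO right of the vertical line. Red is above and blue below the mean of the gene. All members are below their mean in WT replicate 3 and KO replicate 1, with Gpm6a pale in WT replicate 3 and Wt1 pale in KO replicate 1. The keratins stay pale in every lesion.

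Markers of other cell types were set beside the members. Adipocyte markers also had their 2 lowest lesions in WT replicate 3 and KO replicate 1 for 6 of 8 genes, and they summed to 1830, 4438 and 1513 CPM across the WT lesions against 908, 1480 and 6744 CPM across the KO lesions. KO replicate 3, the highest in adipocyte signal, was the third lowest in mesothelial signal, and KO replicate 2, the highest in mesothelial signal, was the second lowest in adipocyte signal. For fibroblast, macrophage, endothelial, smooth muscle, endometrial stroma and endometrial epithelium markers the count was 0 of 8 in each list. The 8 endometrial epithelium markers summed to 1794 CPM in KO replicate 1, 1598 CPM in KO replicate 2 and 1401 CPM in WT replicate 3. In the others they summed to 878 to 1029 CPM. Endometrial stroma markers summed to 407 to 606 CPM in WT and 564 to 838 CPM in KO lesions. Their median fold change was 0.53 on the log2 scale (6 of 8 positive, Vcam1 at -0.79 and Nr2f2 at -0.01). Of these, 3 had a positive fold change with an unadjusted p-value under 0.05 (Hoxa11, Esr1 and Hand2), as did 6.55% of all genes tested, and 0 passed after adjustment. The median of the smooth muscle markers was 0.86 (6 of 8 positive, Des at -2.16 and Synpo2 at -0.49), with 5 of 8 past an unadjusted p-value of 0.05, all positive, and 0 after adjustment. Des and Synpo2 were highest in WT replicates 1 and 3, the libraries with skeletal muscle markers. In WT replicate 1, Des was 2675 of the 4582 CPM of the smooth muscle list. The median of the epithelium markers was 0.53, and with each lesion left out it ran from 0.23 (without KO replicate 1) to 0.73 (without KO replicate 3). Of these markers, 7 of 8 were positive and 0 passed after adjustment. The negative value, that of Cldn4 (-1.07), had an unadjusted p-value under 0.05, as did 8.16% of all genes tested in that direction. Median log2 fold changes were 0.39 for adipocyte, -0.45 for fibroblast, -0.46 for endothelial and -0.87 for macrophage markers, with 0 of 8 past adjustment in each (of the 4 lists, only Pi16, a fibroblast gene with a negative fold change, had an unadjusted p-value under 0.05). With each lesion left out, the medians were lowest without KO replicate 3, at -0.98 for adipocyte, -1.20 for fibroblast, -1.02 for endothelial and -1.45 for macrophage markers. They were highest at 0.94 for adipocyte and -0.29 for macrophage markers, both without WT replicate 2. For fibroblast and endothelial markers the highest were -0.21 and -0.18, both without KO replicate 2. None of the tested skeletal muscle, urothelial, intestinal or pancreatic markers passed after adjustment. All 5 tested skeletal muscle markers, and Trp63, Lgals4 and Cela1, had negative fold changes with unadjusted p-values under 0.05 (8.16% of all genes tested). Skeletal muscle markers were high in WT replicates 1 and 3 only. Several markers of these lists did not pass the filter on low counts and were not tested. Whether these cell types had a part in the members' levels was not tested.

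**Figure D5:**
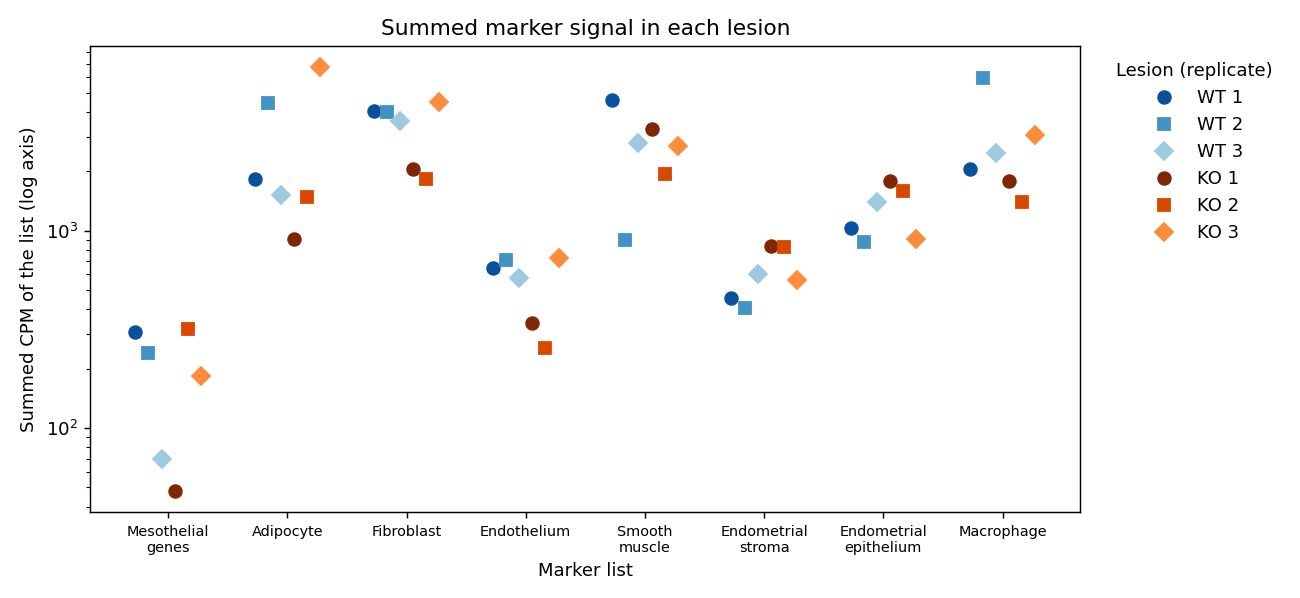
Summed CPM of the mesothelial genes and of 7 lists of 8 marker genes each in every lesion, on a log axis. Points are single lesions in the colours of the plot of levels. The 2 low lesions of the mesothelial sum, WT replicate 3 and KO replicate 1, are among the 3 highest in endometrial epithelium. So is KO replicate 2, which has the highest mesothelial sum.

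Outside all lists, the 5 genes most like the members over the 6 lesions were Crb2, Tm4sf5, Tnrc6b, Plxna4 and Gstm6, with Pearson correlations of 0.983, 0.981, 0.977, 0.976 and 0.975 between log2 CPM and the mean of the standardized members, out of 14942 genes with a mean of at least 1 CPM. The correlation is a description over 6 libraries and carries no test. Crb2, a polarity protein of apical membranes, stood at 11.0, 6.71 and 1.45 CPM across the WT lesions against 1.21, 8.26 and 5.31 CPM across the KO lesions. Plxna4, a semaphorin receptor, stood at 59.4, 48.4 and 29.0 CPM across the WT lesions against 17.6, 52.1 and 42.7 CPM across the KO lesions. Tnrc6b, a protein of microRNA-guided silencing, varied only from 72.3 to 89.7 CPM. Of the listed genes, Rspo1 had a correlation of 0.992 with the same profile and Cldn15 0.957.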

How the data were processed

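RNA was extracted from whole ectopic lesions with an RNeasy kit and made into libraries with the TruSeq Stranded mRNA kit. The deposited values are raw counts of reads per gene, which the authors made on the Galaxy platform by trimming, mapping and counting. The submitters' processing notes name Trimmomatic, featureCounts, DESeq2 and GRCm39, and the methods name GRCm38. The aligner and the annotation release are not given in the sources used here. Of 56884 gene identifiers, 51948 were matched to symbols of GENCODE M21 (GRCm38) after removal of the version and 35 with the same version, and unmatched identifiers held 3.04% to 3.56% of counts. Exon lengths and overlaps came from M21, and models the authors counted may differ.

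The count test was the quasi-likelihood F test of edgeR 4.0.16 (R 4.3.3), with TMM scaling, genotype as the sole term and Benjamini-Hochberg adjustment over the 18177 genes retained by filterByExpr. The biological coefficient of variation common to all genes came to 44.2%. The standard error was taken from the fold change and F, and 95% intervals use the t distribution of the fit. CPM were computed with TMM factors and no prior count, and log2 CPM with a prior count of 2. Wilson intervals cover counting error only. The fits were tested on simulated data. Members, lists and the rule for named genes (members, Dnmt3a, genes of the mesothelial, keratin and relative lists, leading or called genes of other lists, and the 5 genes most alike outside them) were chosen with earlier results of these data known. Several genes of the urothelial and squamous, neuron and Schwann cell, smooth muscle and stroma lists, and the marker genes with unadjusted p-values under 0.05 fell outside that rule and were named after their values were seen. Alternatives were other scalings and filters, DESeq2 1.42.0, limma 3.58.1 voom, the replicate number as a block, and each lesion left out. All 6 libraries were used. Files of single libraries, which hold the same counts, were not.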

Additional observations from a re-analysis of the deposited data

How the results depend on the processing

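No member passed an adjusted p-value of 0.05, or an unadjusted one with a log2 fold change beyond 1, under any of the 13 alternatives. The log2 fold change of Bnc1 changed sign with upper quartile scaling (0.057) and with the replicate block (0.096), and both values are close to 0. Limma voom with quality weights gave -0.59 for Msln, -0.18 for Upk3b, -0.53 for Lrrn4, 0.66 for Wt1, -1.09 for Gpm6a and -0.44 for Bnc1. With each lesion left out, the fold changes ran from -0.94 to 0.42 for Msln, -0.99 to 0.15 for Upk3b, -0.88 to 0.26 for Lrrn4, -0.43 to 0.91 for Wt1 and -0.61 to 0.74 for Bnc1, each changing sign, and from -0.92 to -0.07 for Gpm6a, which kept its sign. The cause was not tested. The log2 ratio of the mean summed signal, KO over WT, ran from -0.82 without KO replicate 2 to 0.29 without KO replicate 1, and the median of the wider list from -0.92 to -0.17. Same-numbered lesions did not deviate together (correlations of 0.03, -0.15 and -0.20 across genes), so the replicate numbers were not taken as pairs.

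DESeq2's Wald test gave Dnmt3a a log2 fold change of -0.58 with an adjusted p of 0.00685, called 391 genes higher and 709 lower after adjustment, and called 1 gene of the wider list. Genes lower after adjustment were 12 with limma voom with quality weights and 0 with DESeq2's size factors, upper quartile scaling or the replicate block, and 0 to 396 with each lesion left out, 396 without WT replicate 2. Genes higher after adjustment were 0 to 2 with a lesion left out (2 without WT replicate 2). At the unadjusted threshold with the fold limit, 855 genes were higher with voom and 372 with the replicate block, and 1652 were lower without a filter beyond 1 count and 573 with the replicate block. With a lesion left out these were 280 (without KO replicate 2) to 1021 (without KO replicate 3) higher and 551 (without KO replicate 1) to 1650 (without KO replicate 3) lower, beside 564 and 1064 in all 6. Upper quartile scaling moved the median of all genes to 0.11. With 3 lesions a group and this spread, only large differences in mesothelial signal could be detected.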
